A study of Rattus rattus with 8 samples.

Results

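The genes described here are the Wnt ligands, the Frizzled receptors, the co-receptors Lrp5 and Lrp6, and the secreted antagonists of the Sfrp, Dkk, Wif1 and Frzb kinds, taken from the expression table by their symbols. The rule found 41 rows with 40 symbols among 30957 genes, Dkk1 being listed under 2 identifiers: 19 ligands, 9 Frizzled receptors, 2 co-receptors and 11 rows of antagonists. They were measured by RNA sequencing in tetraploid (4n) and diploid (2n) cells that had been sorted by Hoechst DNA staining (2 µg/mL) out of cultures of neonatal rat cardiomyocytes, with 4 libraries per group, numbered 1 to 4. The animals were of the SD strain and 1 to 3 days old. After differential adherence the cells were kept 24 h with 0.2 mM AraC, which blocks DNA synthesis, and insulin, transferrin and selenium. They were then starved of serum and held at 1% oxygen for 48 h, so every library is from hypoxic cells and no normoxic group is analysed here. A 4n reading can come from a tetraploid nucleus, from 2 diploid nuclei, from a cell between DNA replication and division, or from 2 cells sorted together. Each replicate number has its own leading code in the library descriptions, shared by its 4n and its 2n library. The descriptions do not explain this code. Whether the numbers stand for separate preparations was not tested, and p-values measure the spread between these libraries.

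Wnt proteins are lipid-modified signals that bind a Frizzled receptor through its cysteine-rich domain. Together with Lrp5 or Lrp6 the receptor then stabilises beta-catenin, and without them it can steer cell polarity and movement through other routes. The Sfrp proteins and Frzb carry a Frizzled-like domain and, like Wif1, bind Wnt proteins outside the cell, while Dkk1, Dkk2 and Dkk4 bind the Lrp co-receptors. In the heart the pathway is known for its part in cardiac specification in the embryo and in fibroblast activation after injury.

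Libraries held 14783521 to 21033772 gene counts. Mitochondrial genes took 24.1% to 25.9% of the counts in 4n replicates 2, 3 and 4, against 2.87% to 3.82% in 4n replicate 1 and the 2n libraries. Markers of several cell types moved with ploidy. A marker is said to rise or fall in 4n at an edgeR adjusted p below 0.05. Of all genes tested, 4.27% rose and 0.608% fell by that measure. The 10 cardiomyocyte markers found of 11 listed summed to between 4044 and 29286 CPM (counts scaled to library size after TMM correction for library composition) in 4n, against 480 to 949 CPM in 2n, and 9 of the 10 rose. The 10 fibroblast markers summed to 40826 to 68518 CPM in 4n, against 67727 to 77908 CPM in 2n, and 2 of them, Lum and Pdgfra, fell. Before adjustment 7 of the 10 were lower below 0.05 and 0 higher (edgeR), against 13% and 16.9% of all genes. The 7 endothelial markers found of 8 summed to 77.7 to 420 CPM in 4n, against 32.9 to 63.5 CPM in 2n, and 5 of them rose. Summed macrophage markers reached at most 18.3 CPM in 4n and 8.96 CPM in 2n, and Schwann and neural markers 16.6 CPM in 4n and 9.75 CPM in 2n. Only 3 of 8 macrophage and 3 of 6 Schwann and neural markers had enough counts to be tested. Of these 0 were called (edgeR, 1 macrophage marker below 0.05 before adjustment). The 8 epicardial markers summed to 102 to 149 CPM in 4n and 122 to 156 CPM in 2n. Their 4n sum was 0.96, 0.88, 0.68 and 0.91 times the 2n sum in replicates 1 to 4. Of the 7 tested, Krt19 rose and 0 fell, with 3 higher and 2 lower below 0.05 before adjustment (edgeR). No marker of these lists was at 0 in all libraries. Fibroblast marker RNA was thus abundant in every library of a preparation named for cardiomyocytes. In sums over sorted cells, fewer cells of a type and less RNA per cell cannot be told apart, and the part of these shifts in the results that follow was not tested.

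Fewer than all members carried reads. Of the 41 rows, 18 reached 1 CPM in at least 4 of the 8 libraries, the level called expressed here, and 21 had enough counts to be tested. The most abundant were receptors, co-receptors and a pair of antagonists. Per gene length, in the deposited FPKM, the highest medians over the 8 libraries were those of Fzd2 at 51.9 FPKM, Fzd1 at 41.0, Lrp5 at 35.5, Sfrp1 at 31.7 and Dkk3 at 28.1 FPKM. Neighbours in this order changed places between libraries. Fzd2 exceeded Fzd1 in 7 of 8 libraries, Fzd1 exceeded Lrp5 in 5, Lrp5 exceeded Sfrp1 in 5 and Sfrp1 exceeded Dkk3 in 4. Dkk3 exceeded the next gene, Fzd4 at 18.5 FPKM, in 8 of 8 libraries. Lrp6 at 16.9 FPKM, Wnt4 at 12.3 and Fzd7 at 11.6 followed, and a lower tier from Sfrp2 at 3.91 to Fzd5 at 2.21 FPKM held Wnt5a, Fzd6, Frzb and Fzd3 between them. Wif1, Sfrp4, Wnt10b, Wnt11, Dkk2 and Wnt5b had medians from 0.895 down to 0.186 FPKM.

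**Figure D1:**
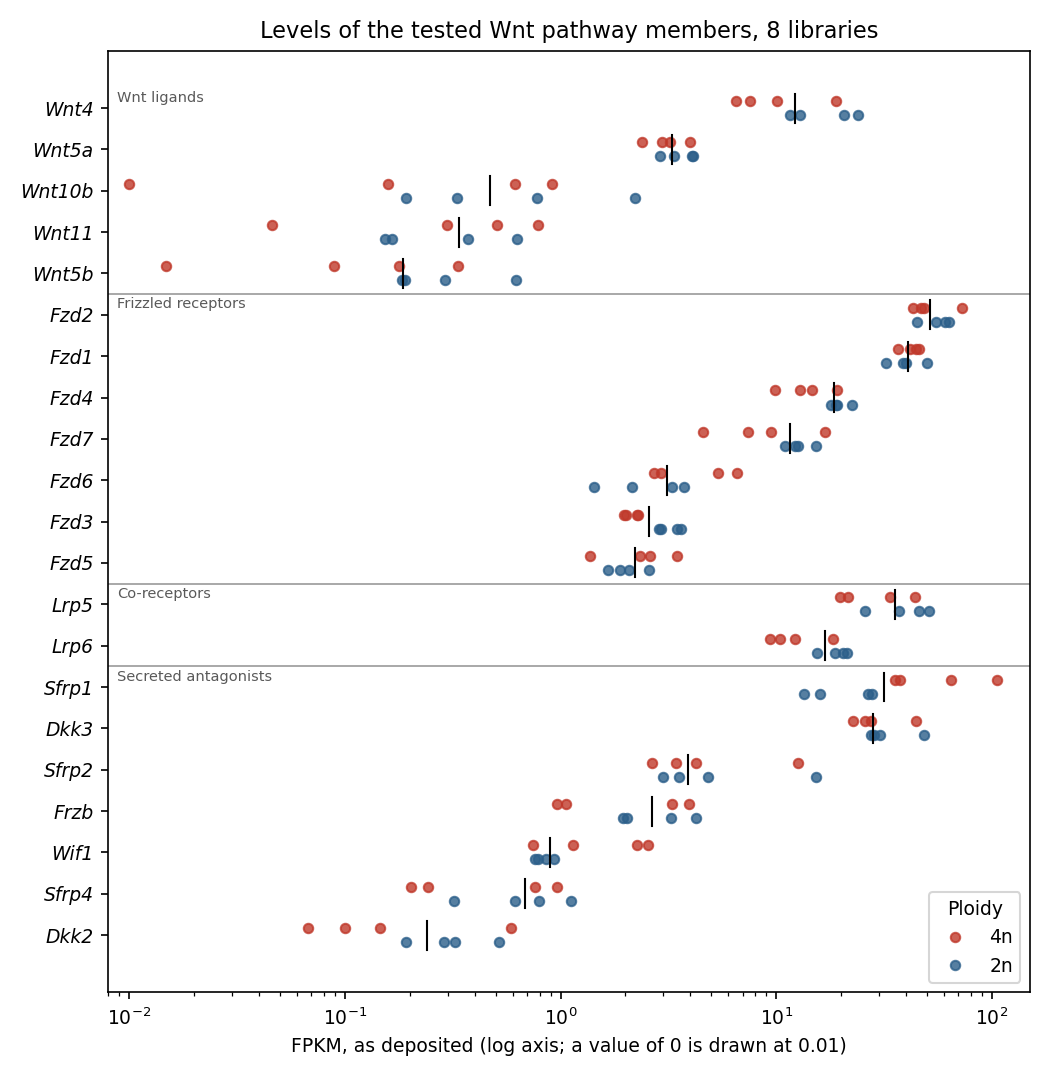
Deposited FPKM (log axis) of the 21 tested genes in each library, with 4n libraries in red above 2n libraries in blue and the median over 8 libraries as a black bar. Fzd2 and Fzd1, with medians of 51.9 and 41.0 FPKM, stand highest, and apart from Wnt4 and Wnt5a the ligands lie below 1 FPKM at the median.

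The other 20 rows were not tested. Reads of Wnt2, Wnt2b, Wnt9a, Wnt16 and Fzd9 were few but spread over 6 to 8 libraries, at most 10 to 13 counts in any library. Wnt7b had 17 counts in all, 11 of them in 4n replicate 3. Wnt1, Wnt3, Wnt6 and Wnt10a had 3 to 8 counts in total. The remaining 10 rows were listed at 0 in all 8 libraries: Wnt3a, Wnt7a, Wnt8a, Wnt8b, Wnt9b, Fzd8, Dkk4, Sfrp5 and both rows of Dkk1. A count of 0 allows up to 3 counts, between 0.130 and 0.223 CPM per library on the same TMM-scaled CPM, for counting error only. The abundant genes Col1a2 and Myh9 were also at 0 throughout this table, so a 0 can come from the counting and says little about these 10 rows. Wnt2b overlaps St7l, which had 1739 counts, and no source used here gives the strand setting of the counting, so the reads of overlapping genes cannot be told apart.

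The comparison of 4n with 2n asked which members differ between the ploidy fractions, and it was made with the replicate number as a block. Of the 21 members tested, 1 rose in 4n, the receptor Fzd6, and 0 fell, at a threshold of 0.05 on the edgeR quasi-likelihood p adjusted over 12983 genes (Benjamini-Hochberg). Across all genes tested 4.88% were called, 4.27% as higher and 0.608% as lower, so a single call among 21 is near the background. Below 0.05 on the unadjusted p stood 4 members higher, Fzd6, Wif1, Sfrp1 and Fzd1, and 3 lower, Lrp6, Wnt4 and Fzd3, against 16.9% of all genes higher and 13% lower. DESeq2 called 2 members higher, Fzd6 and Sfrp1, and 2 lower, Lrp6 and Wnt4, where it called 10.3% of all genes higher and 4.98% lower. With limma-voom 1 member, Fzd6, was called higher and 0 lower, against 6.89% and 1.21% of all genes, and 5 members were lower below 0.05 before adjustment, against 12.9% of all genes. The median log2 fold change was -0.22 over the tested members and -0.02 over all genes tested, and 11 of 21 members were negative, against 52.3% of all genes. The CPM values of 4n and 2n libraries did not overlap for 2 members. Sfrp1 was higher in 4n, as were 7.68% of all genes without overlap, and Fzd3 was lower, as were 3.69%.

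**Figure D2:**
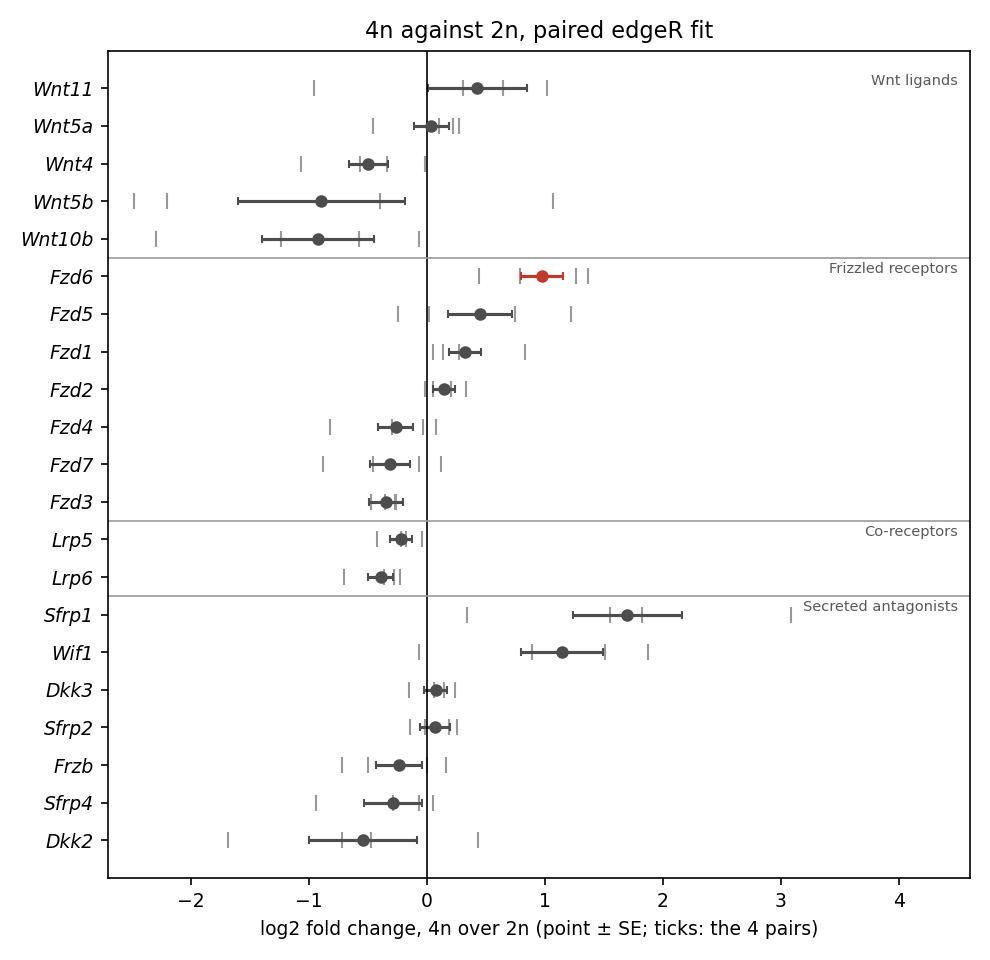
Log2 fold change of 4n over 2n for the 21 tested genes from the paired edgeR fit, as points with standard errors, with grey ticks for the differences in the 4 pairs. Fzd6, in red at 0.98, passed the threshold, and Sfrp1 and Wif1 have larger estimates but wider spread.

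Among the ligands, Wnt4 supplied most of the transcript. It took between 48.3% and 81.5% of the summed ligand FPKM and was the highest ligand in 8 of 8 libraries, and with Wnt5a it made up 77.8% to 92.9%. Wnt4, a ligand known for its roles in kidney and gonad development, lies on chromosome 5 from 155649217 to 155672579 of Rnor_6.0. It stood at 114, 77.6, 61.0 and 48.8 CPM in 4n replicates 1 to 4, against 143, 78.7, 128 and 72.2 CPM in 2n replicates 1 to 4. The ranges overlap, since 4n replicate 1 lies above 2n replicates 2 and 4, but Wnt4 was lower in 4n in 4 of 4 pairs, as were 19.7% of all genes. Its log2 fold change was -0.50 ± 0.16 (SE) and did not pass (edgeR adjusted p = 0.101). With DESeq2 and the same block it passed (adjusted p = 0.0406).

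Wnt5a, the main ligand of the polarity route, was even across the libraries. It had 13.3, 18.5, 14.5 and 22.3 CPM in 4n replicates 1 to 4, against 18.3, 15.3, 13.5 and 19.1 CPM in 2n. Neither group stood higher, and the log2 fold change was 0.04 ± 0.15 (SE, edgeR adjusted p = 0.892), with a 95% interval from -0.30 to 0.39 by limma-voom. Changes of 2-fold lie outside that interval.

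Levels of the remaining tested ligands were low, at most 4.45 CPM in any library. Wnt10b, which is known to favour bone over fat formation, had 1.83, 0, 0.429 and 1.53 CPM in 4n replicates 1 to 4, against 4.45, 0.391, 0.689 and 1.61 CPM in 2n. Both libraries of replicate 1 stood highest in their groups and those of replicate 2 lowest. Its log2 fold change of -0.92 ± 0.47 (SE) did not pass (edgeR adjusted p = 0.229). Wnt11, which acts in heart tube formation, averaged 1.08 ± 0.734 CPM in 4n and 0.781 ± 0.516 CPM in 2n, and Wnt5b averaged 0.690 ± 0.656 CPM in 4n and 1.18 ± 0.740 CPM in 2n (SD, n = 4 each). Neither passed (edgeR adjusted p = 0.523 and 0.424).

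Frizzled transcript was dominated by Fzd1 and Fzd2, close relatives within the family. Together they made up 68.8% to 77.7% of the summed Frizzled FPKM, and with Fzd4 and Fzd7 89.7% to 94.9%. Fzd1 had 165, 186, 238 and 226 CPM in 4n replicates 1 to 4, against 159.5, 155, 133 and 206 CPM in 2n. It was higher in 4n in 4 of 4 pairs with overlapping ranges, and its log2 fold change of 0.32 ± 0.14 (SE) did not pass (edgeR adjusted p = 0.164). Fzd2 had 125, 94.8, 112 and 100.4 CPM in 4n, against 109, 96.1, 108 and 79.8 CPM in 2n, and did not pass (log2 fold change 0.14 ± 0.09 SE, edgeR adjusted p = 0.340).

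Fzd6 was the member that rose. This receptor is known for polarity in skin and hair, and its gene lies on chromosome 7 from 77899322 to 77931029. It had 11.1, 13.2, 33.4 and 25.3 CPM in 4n replicates 1 to 4, against 8.11, 5.47, 12.9 and 14.6 CPM in 2n. The 4n library was higher in 4 of 4 pairs, with pair differences of 0.44, 1.26, 1.36 and 0.79 on the log2 CPM scale. The ranges overlap, since replicates 3 and 4 had more Fzd6 in both fractions. The log2 fold change was 0.98 ± 0.18 (SE, edgeR adjusted p = 0.0355). Its share of Frizzled FPKM stayed small, between 1.08% and 5.48%. The call needed the pairing: without the block the log2 fold change was 1.01 and the edgeR adjusted p 0.255, and 0 members were called, where 2.67% of all genes were higher and 0.0077% lower. It was also lost without replicate 2 (edgeR adjusted p = 0.112) and without replicate 4 (edgeR adjusted p = 0.204), where 0 genes of the whole table passed. The 4 values in 4n follow the same order over the replicates as the summed cardiomyocyte markers, which were 4044, 7635, 29286 and 10517 CPM in 4n replicates 1 to 4. The part of those markers in the Fzd6 difference was not tested.

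The other Frizzled receptors did not pass. Fzd4, the receptor that also binds norrin in retinal vessels, had 117, 117, 81.4 and 98.4 CPM in 4n replicates 1 to 4, against 111, 119, 144 and 121 CPM in 2n. Fzd7 had 42.5, 30.9, 15.7 and 23.4 CPM in 4n, against 39.0, 32.5, 28.9 and 32.2 CPM in 2n. For both genes the pair of replicate 3 held the largest difference, -0.82 for Fzd4 and -0.88 for Fzd7 on the log2 CPM scale, and replicate 1 had the opposite sign. Their log2 fold changes were -0.27 ± 0.15 and -0.31 ± 0.17 (SE, edgeR adjusted p = 0.272 and 0.250). Fzd3, which guides axons, had 5.64, 7.21, 6.65 and 6.06 CPM in 4n, against 7.26, 8.68, 9.28 and 7.33 CPM in 2n. Its 4n values all lay below its 2n values, though the log2 fold change of -0.35 ± 0.14 (SE) did not pass (edgeR adjusted p = 0.159). Fzd5 averaged 5.78 ± 2.35 CPM in 4n and 4.05 ± 0.707 CPM in 2n (SD, n = 4 each; edgeR adjusted p = 0.302), and 4n replicate 3 was its highest library at 9.02 CPM.

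Of the co-receptors, Lrp5 was the more abundant per length in 8 of 8 libraries, with an Lrp5 to Lrp6 ratio of FPKM between 1.37 and 3.24. Lrp6 had 101, 86.8, 69.3 and 71.4 CPM in 4n replicates 1 to 4, against 118, 106, 89.3 and 116 CPM in 2n. It was lower in 4n in 4 of 4 pairs, with ranges that overlap, and with a log2 fold change of -0.39 ± 0.10 (SE) it missed the threshold (edgeR adjusted p = 0.0667). It passed without replicate 1 (edgeR adjusted p = 0.0461) and with DESeq2 (adjusted p = 0.0172). The fit without replicate 1 called 399 genes lower, against 79 in the main fit. Lrp6 did not pass without replicate 2, 3 or 4 (edgeR adjusted p = 0.137, 0.0892 and 0.281). Lrp5, known for its effect on bone mass, had 200.1, 116, 132 and 191 CPM in 4n, against 233, 119, 177 and 217 CPM in 2n. Here too the 4n value was the lower in 4 of 4 pairs, and the log2 fold change of -0.22 ± 0.09 (SE) did not pass (edgeR adjusted p = 0.171).

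**Figure D3:**
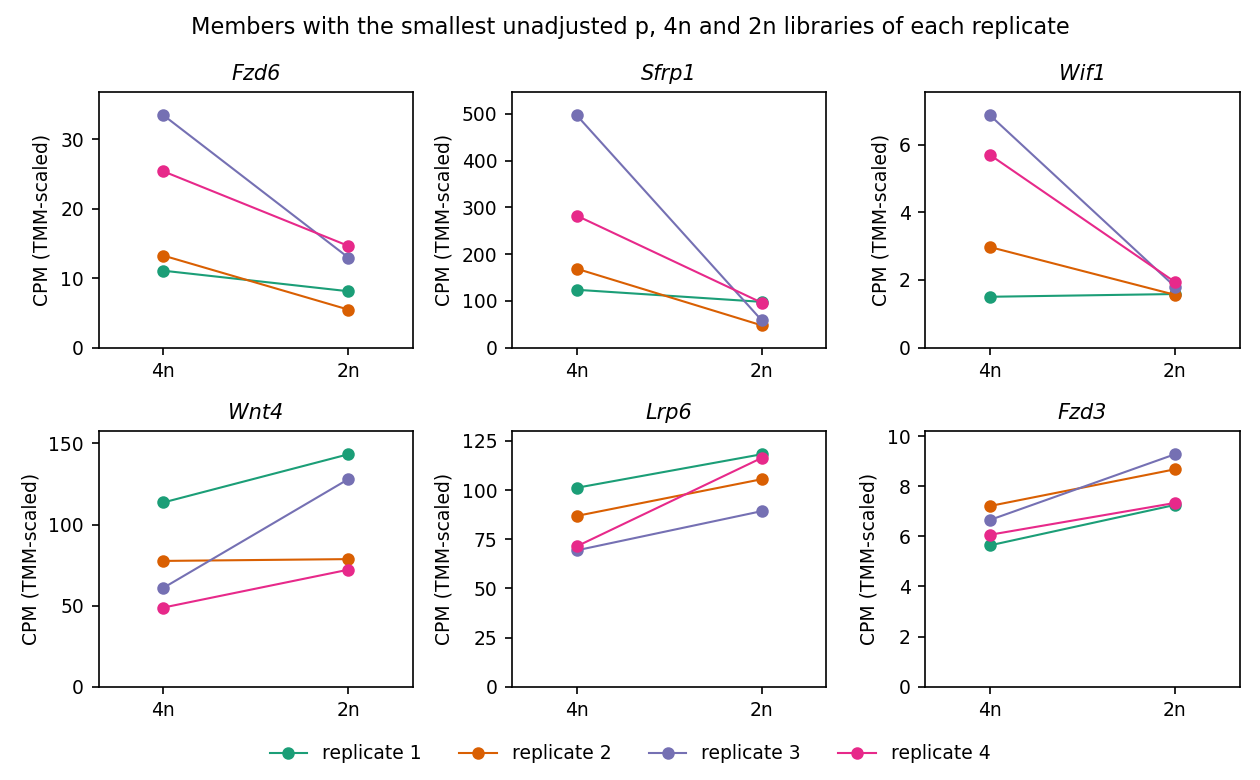
TMM-scaled CPM of the 6 genes with the smallest unadjusted p, with the 4n library left of the 2n library of the same replicate and a line joining each pair. Sfrp1 reached 497 CPM in 4n replicate 3 against 58.4 CPM in 2n replicate 3, and Lrp6, Wnt4 and Fzd3 lie lower in 4n in all 4 pairs.

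The antagonists held the largest estimate of the set. Sfrp1, which binds Wnt proteins outside the cell, lies on chromosome 16 from 73372007 to 73410777. It had 124, 169, 497 and 282 CPM in 4n replicates 1 to 4, against 98.0, 47.7, 58.4 and 96.1 CPM in 2n. The 4n libraries all lay above the 2n libraries, but they spread widely, and the difference in replicate 1 was small. The pair differences were 0.34, 1.82, 3.09 and 1.55 on the log2 CPM scale, and the log2 fold change of 1.70 ± 0.46 (SE) did not pass (edgeR adjusted p = 0.0906). Sfrp1 passed without replicate 1, the pair with its smallest difference, with a log2 fold change of 2.13 (edgeR adjusted p = 0.00946). That fit called 1254 genes higher, against 554 in the main fit. It also passed with DESeq2 (adjusted p = 0.0135). Without replicate 2, 3 or 4 Sfrp1 did not pass (edgeR adjusted p = 0.209, 0.168 and 0.287). The ratio of Sfrp1 to Dkk3 FPKM was 1.37, 1.65, 3.83 and 1.45 in 4n replicates 1 to 4, against 0.979, 0.486, 0.529 and 0.549 in 2n, so Sfrp1 was the leading antagonist in 4n libraries and Dkk3 in 2n libraries. Like Fzd6, Sfrp1 in 4n followed the order of the summed cardiomyocyte markers over the replicates, as did Fzd1 and Wif1. Fzd4, Fzd7 and Lrp6 had the reverse order in 4n. The share of genes in the whole table with such an order was not counted, and the part of those markers in these levels was not tested.

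Wif1, an antagonist with its own Wnt-binding domain, had 1.50, 2.97, 6.87 and 5.70 CPM in 4n replicates 1 to 4, against 1.59, 1.56, 1.80 and 1.94 CPM in 2n. The 2n libraries were tightly grouped, 3 of the 4n libraries lay above them, and 4n replicate 1 lay below. The log2 fold change of 1.14 ± 0.34 (SE) did not pass (edgeR adjusted p = 0.0831). Without replicate 1, the pair of opposite sign, it was 1.46 and passed (edgeR adjusted p = 0.0160), in a fit that called 1254 genes higher. Wif1 did not pass without replicate 2, 3 or 4 (edgeR adjusted p = 0.160, 0.211 and 0.334) or with DESeq2 (adjusted p = 0.0506).

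Dkk3, a divergent member of its family, was abundant and close to even between the fractions. It had 116, 132, 167 and 249.8 CPM in 4n replicates 1 to 4, against 129, 126, 142 and 225 CPM in 2n. Its log2 fold change was 0.07 ± 0.10 (SE, edgeR adjusted p = 0.634), with a 95% limma-voom interval from -0.15 to 0.29. Sfrp2, a close relative of Sfrp1, had 8.97, 9.29, 7.51 and 33.0 CPM in 4n, against 7.50, 10.3, 6.57 and 33.4 CPM in 2n. Its log2 fold change was 0.07 ± 0.13 (SE, edgeR adjusted p = 0.756), with an interval from -0.25 to 0.34. For both genes a 2-fold difference between the fractions lies outside the interval.

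Frzb, also called sFRP3, had 8.06, 3.05, 3.51 and 12.1 CPM in 4n replicates 1 to 4, against 8.05, 5.08, 4.98 and 10.8 CPM in 2n. Sfrp4 had 3.60, 1.49, 1.29 and 5.70 CPM in 4n, against 3.78, 2.95, 1.59 and 5.49 CPM in 2n. Both genes were lowest in replicates 2 and 3 and highest in replicate 4 whichever fraction is read, and neither passed for ploidy (log2 fold changes -0.24 ± 0.20 and -0.29 ± 0.25 SE, edgeR adjusted p = 0.447 and 0.458). Sfrp4 overlaps Nme8, which was listed at 0. Dkk2 averaged 0.894 ± 0.975 CPM in 4n and 1.07 ± 0.453 CPM in 2n (SD, n = 4 each; edgeR adjusted p = 0.450).

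**Figure D4:**
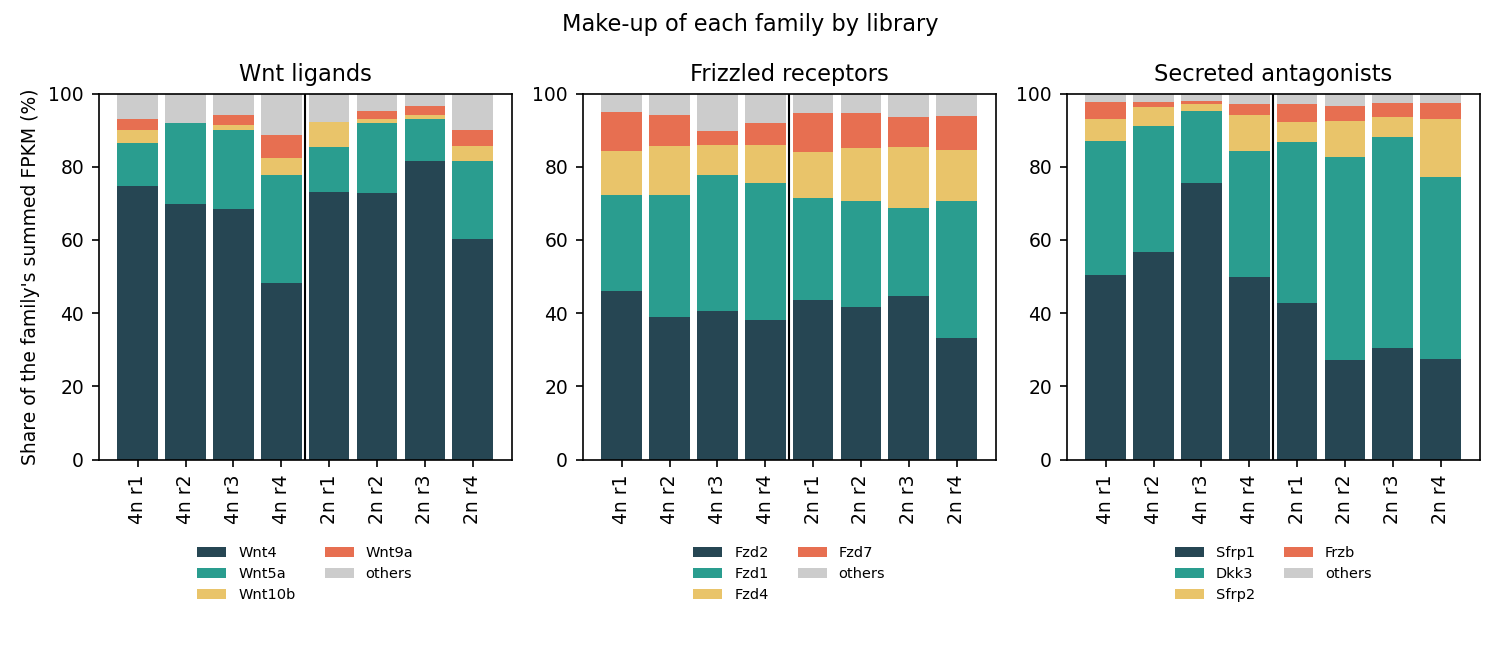
Share of each family's summed FPKM (%) taken by its 4 leading genes in each library, with 4n libraries left of 2n libraries. Sfrp1 takes 50.0% to 75.6% of the antagonist sum in 4n and 27.1% to 42.9% in 2n, while Fzd1 and Fzd2 hold 68.8% to 77.7% of the Frizzled sum throughout.

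The replicate numbers separated some members in both fractions alike. In the same fit, an F test of the replicate terms called 7 of the 21 members: Sfrp2, Dkk3, Lrp5, Fzd6, Frzb, Sfrp4 and Wnt10b (edgeR adjusted p from 0.00220 to 0.0430). Across all genes tested 8.21% were called. Both libraries of replicate 4 carried the most Sfrp2, 4.72 times the level of the lowest replicate as means of the 2 fractions, and this gene had the smallest edgeR adjusted p, 0.00220. Dkk3, Frzb and Sfrp4 were also highest in replicate 4, at 1.94, 2.83 and 3.89 times the lowest replicate. Lrp5 and Wnt10b were highest in replicate 1 and lowest in replicate 2. Fzd6 was highest in replicate 3 as the mean of the 2 fractions and in 4n. In 2n it was highest in replicate 4, at 14.6 CPM against 12.9 CPM in replicate 3. The test compares the spread between replicates with that within pairs, and the labels do not say what differed between the numbers.

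These calls varied with the pairs kept. Without replicate 4, 0 members (8 below 0.05 before adjustment) and 64 of all genes passed in edgeR. Without replicate 2, 1 member, Sfrp2, and 224 of all genes passed, with 11 members below 0.05 before adjustment, as in the main fit. Without replicate 1, 5 members and 676 genes passed, and without replicate 3, 7 members and 2520 genes. Some markers of mural cells were high in both libraries of replicate 4. Rgs5 stood at 51.4 CPM in 4n replicate 4 and 43.2 CPM in 2n replicate 4, against at most 12.9 CPM elsewhere, and Kcnj8 and Abcc9 were also highest there. Of 9 smooth muscle and pericyte markers 5 differed between replicate numbers (edgeR adjusted p below 0.05), against 8.21% of all genes tested. So did 3 of 7 tested epicardial, 2 of 7 endothelial, 2 of 10 fibroblast and 1 of 10 cardiomyocyte markers. The whole list of 9 smooth muscle and pericyte markers summed to 5622 to 10258 CPM in 4n and 5923 to 9747 CPM in 2n. Its sum was highest in replicate 2 in both fractions, with replicate 4 at 6735 CPM in 4n and 7305 CPM in 2n. No marker of that list was at 0. Summed endothelial markers were highest in replicate 4 in both fractions, at 420 CPM in 4n and 63.5 CPM in 2n. So were summed Schwann and neural markers, at 16.6 CPM in 4n and 9.75 CPM in 2n. The cardiomyocyte, fibroblast, epicardial and macrophage sums were highest in other replicates in both fractions. The part of any of these markers in the Sfrp2, Dkk3, Frzb and Sfrp4 differences was not tested.

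**Figure D5:**
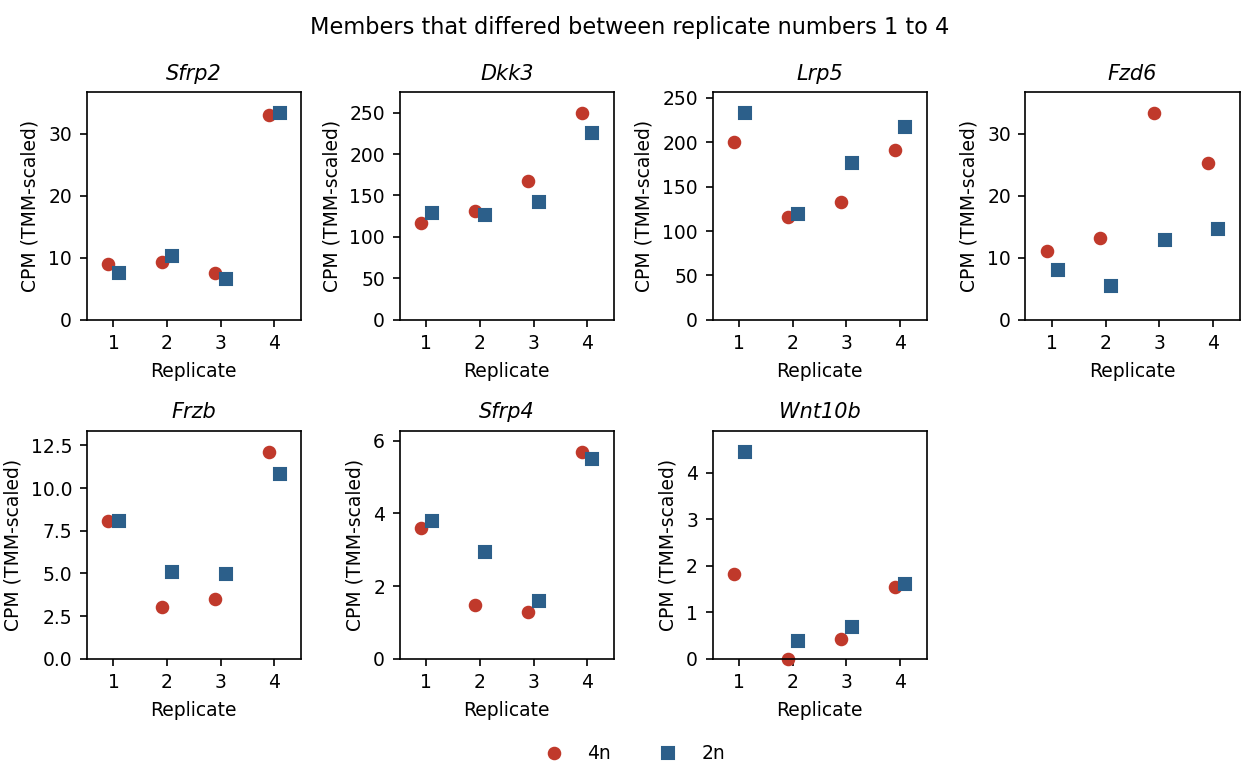
TMM-scaled CPM of the 7 genes that differed between replicate numbers, by replicate, with 4n libraries as red circles left of 2n libraries as blue squares. Sfrp2 lies at 33.0 CPM in 4n and 33.4 CPM in 2n in replicate 4 and at 10.3 CPM or less elsewhere.

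The pathway's other listed genes were read from the same fit. Of 25 intracellular components, 1 rose in 4n and 0 fell, with 1 higher and 8 lower below 0.05 before adjustment (edgeR). Over all genes tested these shares were 4.27% higher and 0.608% lower, and 16.9% and 13% before adjustment. A single call among 25 is thus near the background, while 8 lower before adjustment is above it. Of 4 tested genes of Wnt secretion 0 rose and 0 fell, with 0 below 0.05 before adjustment (edgeR). Of 12 tested modulators 1 rose and 0 fell, with 1 higher and 2 lower before adjustment (edgeR). Of 19 polarity and alternative-receptor genes 1 rose and 0 fell, with 5 each way before adjustment, and of 14 genes known as transcriptional targets 0 rose and 0 fell, with 3 lower before adjustment (edgeR). DESeq2 called 1 intracellular component, 1 modulator and 2 polarity genes higher, and 3 intracellular components, 2 modulators, 4 polarity genes and 1 target lower, against 10.3% of all genes higher and 4.98% lower. The limma-voom counts in these lists were the same as those of edgeR. The median log2 fold changes of these lists lay between -0.16 and 0.03.

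The pathway genes that rose were Cxxc4, Lgr4 and Celsr1. Cxxc4, an inhibitor that binds Dishevelled, averaged 4.14 ± 1.80 CPM in 4n and 0.474 ± 0.120 CPM in 2n (SD, n = 4 each). It was 3.06 ± 0.37 (SE) higher on the log2 scale (edgeR adjusted p = 0.0145). Lgr4, a receptor for R-spondins, had 27.1, 37.0, 87.9 and 52.3 CPM in 4n replicates 1 to 4, against 17.9, 20.6, 24.5 and 25.8 CPM in 2n, without overlap, and was 1.08 ± 0.20 (SE) higher on the log2 scale (edgeR adjusted p = 0.0396). Celsr1, a cadherin of planar polarity, averaged 12.1 ± 7.24 CPM in 4n and 3.90 ± 0.110 CPM in 2n (SD, n = 4 each), 1.48 ± 0.30 (SE) higher on the log2 scale (edgeR adjusted p = 0.0436). Without the block Lgr4 did not pass (edgeR adjusted p = 0.103). Without replicate 2 or replicate 4 none of these 3 passed, at edgeR adjusted p from 0.0804 to 0.235. All 3 genes were highest in 4n replicate 3, the library with the most cardiomyocyte marker RNA, and the part of those markers was not tested.

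Several abundant pathway genes were close to even between the fractions. Ctnnb1, which encodes beta-catenin, averaged 316 ± 17.6 CPM in 4n and 328 ± 30.1 CPM in 2n, and Wls, the carrier that brings Wnt proteins to the cell surface, averaged 350 ± 81.0 CPM in 4n and 340 ± 64.3 CPM in 2n (SD, n = 4 each). On the log2 scale they differed by -0.05 ± 0.09 and 0.03 ± 0.09 (SE, edgeR adjusted p = 0.721 and 0.838). The tyrosine kinase-like receptors Ryk and Ptk7 had median levels of 87.9 and 74.6 FPKM, above every Frizzled receptor. Ptk7 averaged 135 ± 37.6 CPM in 4n and 177 ± 21.5 CPM in 2n (SD, n = 4 each) and did not pass (log2 fold change -0.43 ± 0.12 SE, edgeR adjusted p = 0.0760). Axin2, a feedback target of beta-catenin that was singled out after its values were seen, had 1.50, 0.744, 1.00 and 1.31 CPM in 4n replicates 1 to 4, against 2.26, 1.04, 2.44 and 2.18 CPM in 2n. It was lower in 4n in 4 of 4 pairs and did not pass (log2 fold change -0.77 ± 0.29 SE, edgeR adjusted p = 0.126).

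The most abundant genes of the lists did not pass either. Per length, the secreted matricellular genes Ctgf and Cyr61 had medians of 501 and 387 FPKM, and their log2 fold changes were -0.10 ± 0.16 and -0.13 ± 0.10 (SE, edgeR adjusted p = 0.698 and 0.408). Tmed2, which serves protein export, had a median of 211 FPKM, and Csnk1a1, the kinase that primes beta-catenin for degradation, 105 FPKM. The glypican Gpc3 had a median of 70.8 FPKM and differed by -0.42 ± 0.14 on the log2 scale (SE, edgeR adjusted p = 0.0971). Dvl3, a Dishevelled protein that relays the receptor signal, had 30.5 FPKM and differed by -0.21 ± 0.10 on the log2 scale (SE, edgeR adjusted p = 0.216). Gpc4, Wisp2, Tcf21, Prickle1 and Tmed5, at medians between 13.0 and 72.0 FPKM, also missed the threshold (edgeR adjusted p from 0.181 to 0.801).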

How the data were processed

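Each row of the deposited table gives a gene's count and FPKM in every library, per the file headers. HISAT2 2.0.4 and the rat build Rnor_6.0 are named in the submitters' processing notes, while the labels write Rattus rattus. Counting tool and strand setting: not given in the sources used here. Deposited counts are whole numbers, and deposited FPKM is the count over a gene's constant and the library total, which held within 1% for 100% of genes with reads.

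Groups come from the titles. edgeR 4.0.16 (R 4.3.3) was run on the counts of 12983 genes passing filterByExpr, TMM-scaled, in a robust quasi-likelihood fit with ploidy and replicate number as terms. Tests were two-sided and adjusted over all genes tested (Benjamini-Hochberg, threshold 0.05). The SE is the log2 fold change over the square root of F. Pair differences are of log2(CPM + 0.1). Descriptions of same-numbered libraries begin with the same code, and within pairs the deviations from group means correlated at 0.43, 0.58, 0.27 and 0.65 for replicates 1 to 4, so the numbers were taken to pair libraries. Libraries of a group differed beyond sampling noise (chi-square per degree of freedom 36.6 to 422). Library totals of 14783521 to 21033772 counts set the precision of low genes. Intervals come from limma 3.58.1 (voom), and DESeq2 1.42.0 was an alternative.

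Every member was described, and other pathway genes were named if called or among the highest of their list. Members and gene lists were chosen with earlier results of these data known. No sequences are printed.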

Additional observations from a re-analysis of the deposited data

Results flagged for a closer look

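Each tested member's 4 values per group were examined for a single library standing far from the others, by Dixon's ratio of gap to range at its 95% critical value. Of 42 groups, 3 were marked, and chance marks about 1 in 20. Sfrp2 in replicate 4 stood at 33.0 CPM in 4n, where the next library had 9.29 CPM, and at 33.4 CPM in 2n, where the next had 10.3 CPM. Dkk3 in 2n replicate 4 stood at 225 CPM, above the next library at 142 CPM. In 4n, Dkk3 was also highest in replicate 4, at 249.8 CPM, without being marked. All 3 values carry the same replicate number.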

How the results depend on the processing

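Each of the 21 members was refitted under 22 alternatives, or 20 for the scarce Wnt11 and Wnt5b. Of 458 such values 421 stayed on their side of the threshold, 11 lost a call, all of them Fzd6, and 26 gained one. Fzd6 kept a positive log2 fold change in all 22, from 0.55 to 1.23, and passed in 11.

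Without the replicate block edgeR called 347 genes higher and 1 lower in 4n (main 554 and 79) and 0 members higher, with 3 members higher and 1 lower below 0.05 before adjustment. Total-count scaling, which counts the mitochondrial reads and moves the median log2 fold change of all genes to -0.26, gave 858 and 2520 genes, 2 members higher, 6 lower (Fzd3, Fzd4, Fzd7, Lrp5, Lrp6 and Wnt4), and 1914 genes differing between replicate numbers (main 1066). On log2(FPKM + 0.1) limma gave 894 and 2327 genes and 6 members lower at a median of -0.26, and on log2(FPKM + 1) 2082 genes lower with 2 members higher and 4 lower at a median of -0.20. DESeq2 with the block gave 1283 and 621 genes with 2 members each way, and limma-voom 895 and 157 genes.

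Leaving out 1 replicate pair gave 0 to 1254 genes higher and 0 to 399 lower, 0 to 3 members higher, 0 to 1 lower, 64 to 2520 genes differing between replicate numbers, and 0 to 7 members. Counts of 0 genes in either direction and of 0 members higher came without replicate 2 or 4. There 1962 and 1404 genes were higher below 0.05 before adjustment (edgeR). Members lower were 0 without replicate 3 as well, and 0 members differed between replicate numbers only without replicate 4. Leaving out single libraries without the block gave 0 to 870 genes higher (308 without 4n replicate 2 and 278 without 4n replicate 3), 0 to 90 lower and 0 to 2 members higher. With 3 pairs fewer samples enter the test, and the cause of the other changes was not tested. Levels under 1 CPM rest on few reads.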

Other observations

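Several ligand genes lie beside each other. Wnt10b, with 190 counts over the 8 libraries, lies 10.7 kb from Wnt1, which had 4. Wnt9a had 40 counts and lies 21.1 kb from Wnt3a, which was listed at 0. In the pairs Wnt3 with Wnt9b, 22.7 kb apart, and Wnt6 with Wnt10a, 6.41 kb apart, neither gene had more than 8 counts in all. The 2 rows of Dkk1 lie 55.6 kb apart, and both were listed at 0.

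The balance of the 2 leading ligands varied by library. Wnt4 exceeded Wnt5a, in FPKM, 6.39, 3.14, 3.16 and 1.64 times in 4n replicates 1 to 4, against 5.87, 3.85, 7.12 and 2.83 times in 2n. Replicate 4 had the lowest ratio in both fractions. The pair of replicate 3 held the largest difference between the fractions, in size on the log2 CPM scale, for 11 of the 21 members tested, against 4, 4 and 2 members for replicates 1, 2 and 4.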
